A study of Mus musculus with 12 samples.

Results

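Cholesterol and fatty acid synthesis was followed through 26 genes in mouse embryonic fibroblasts (MEFs), connective tissue cells of the mouse embryo grown in culture, with and without the ubiquitin ligase CHIP and with and without a heat shock. The 26 genes were given as a list of symbols, which were matched in a table of 54532 genes. They fall into 17 sterol genes (Hmgcs1, Mvk, Pmvk, Mvd, Idi1, Fdps, Fdft1, Sqle, Lss, Cyp51, Msmo1, Nsdhl, Sc5d, Dhcr7, Insig1, Srebf2 and Stard4) and 9 fatty acid genes (Srebf1, Acly, Acaca, Fasn, Elovl6, Scd1, Scd2, Fads1 and Fads2), which are given apart. RNA-seq of poly(A)-captured RNA was available from 12 libraries in 4 groups of 3, which were unheated wild-type (WT) MEFs, WT MEFs after 1 hour at 43 °C, unheated CHIP-KO MEFs and CHIP-KO MEFs after the same heat. CHIP is encoded by Stub1 and links chaperones of the heat shock response to ubiquitination. The labels do not say how the CHIP-KO line was made, whether it is 1 clone, or whether the WT cells share its origin, so the deletion of Stub1 and any other difference between the lines cannot be told apart. Nor do they state that replicates are separate cultures. The spread behind each p-value is therefore that between libraries, which may be technical.

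Cells build cholesterol from acetyl-CoA through the mevalonate pathway, which joins isoprene units into squalene and then closes and trims the sterol rings. Transcription of this pathway is driven by SREBP2, the product of Srebf2, which is held in the endoplasmic reticulum by INSIG proteins when sterols are plentiful and is released and cleaved when they fall. SREBP1, the product of Srebf1, drives mainly the genes of fatty acid synthesis, elongation and desaturation, and Srebf1 is itself a target of the sterol-sensing nuclear receptor LXR.

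The libraries held 15591924 to 26954112 fragments, recovered from the deposited FPKM values (fragments per kilobase of gene, scaled per library). In CHIP-KO libraries the sterol genes held 0.181 to 0.186% of fragments before heat and 0.162 to 0.168% after it. Their summed FPKM was 373 to 387 before and 359 to 379 after heat, so the scaling was not by fragment totals alone. What set the scaling was not tested, and the heat results below rest on it. Stub1 was at 61.7 ± 3.63 FPKM (SD, n = 3) in unheated WT and at 0.971 ± 0.229 FPKM in unheated CHIP-KO libraries, and at 55.4 ± 2.25 and 1.08 ± 0.0887 FPKM after heat. The heat-inducible chaperone gene Hspa1a went from 2.25 to 1104 FPKM on average in WT and from 3.48 to 1770 FPKM in CHIP-KO libraries. Replicate 1 of both WT groups stood apart from its 2 partners, with 17.6 to 26.7 units of chi-square per degree of freedom in paired counts against 3.49 and 5.09 for the partners, and replicate 1 of heated CHIP-KO did so with 10.4 and 16.6 against 3.40. The summed FPKM of 9 fibroblast markers was 1436 to 1857 in unheated WT, 1845 to 2197 in heated WT, and in CHIP-KO libraries 2915 to 3079 before and 3264 to 3462 after heat. Of the 9 markers, 5 to 6 reached 1 FPKM in WT libraries and 8 in CHIP-KO libraries, since Thy1 and Dcn were at or near 0 in WT only and Lum was at or near 0 throughout. Of 8 adipocyte markers only Pparg reached 1 FPKM, with Lep at 0 in every library and Adipoq and Plin1 at or near 0. Of 5 macrophage markers Cd68 reached 1 FPKM in every library, with Ptprc and Adgre1 at or near 0, and Lyz2 reached it in 1 heated WT library. None of 4 endothelial or 4 epithelial markers reached 1 FPKM. The fibroblast markers moved with genotype and, in both genotypes, with heat. After heat their mean sum was 128% of the unheated one in WT, where the ranges overlapped, and 114% in CHIP-KO libraries. Single markers in WT went both ways, with Col3a1 from 32.3 to 141 FPKM on average without overlap and Vim from 599 to 525 FPKM with overlap. Between unheated WT and CHIP-KO libraries, Col1a2 was at 35.6 and 517 FPKM on average and Pdgfra at 1.0 and 19.1 FPKM. Vim alone of the 9 was lower in unheated CHIP-KO, at 599 and 492 FPKM without overlap. The part of the fibroblast markers in the results below was not tested. The macrophage list moved with heat. Its summed level was 2.0 to 3.41 FPKM in unheated and 13.4 to 15.8 FPKM in heated WT, and 3.94 to 4.61 before and 8.55 to 10.8 FPKM after heat in CHIP-KO libraries. Cd68, which codes for a protein of lysosomes, made up nearly all of it, at 2.41 and 13.4 FPKM on average in WT and 3.72 and 8.85 FPKM in CHIP-KO, while Adgre1 was at 0 in every library.

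All 26 genes passed the filter on low values, 1 FPKM in at least 3 of the 12 libraries, which 13023 genes passed. The lowest-covered gene, Fdps, had 99 to 334 fragments per library and the highest, Scd2, had 35326 to 62479. On the FPKM scale, which corrects for gene length, the fatty acid genes held the highest levels. In unheated WT libraries Scd2, a stearoyl-CoA desaturase, was at 568 ± 36.7 FPKM (SD, n = 3), followed by Fads2 at 151 ± 1.72, Fads1 at 115 ± 15.1, Acly at 103 ± 5.03 and Srebf2 at 93.3 ± 2.04 FPKM. In that order the libraries of Fads1 and Acly overlapped, and those of the other neighbours did not. The lowest levels there were Fdps at 3.76 ± 0.226, Acaca at 9.34 ± 0.898 and Dhcr7 at 10.3 ± 0.12 FPKM. The level of Fdps, the farnesyl diphosphate synthase, is uncertain, since it has processed copies elsewhere in the genome and the rule for counting shared reads is not given in the sources used here. That rule is also unknown for any reads shared within the related pairs Scd1 and Scd2, and Fads1 and Fads2, and such sharing was not measured. Each is a pair of neighbours on chromosome 19, separated by 87586 and 81384 bases.

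All 17 sterol genes were lower in CHIP-KO than in WT cells without heat. Their summed level was 634 to 686 FPKM in the 3 WT libraries and 373 to 387 FPKM in the 3 CHIP-KO libraries, so that CHIP-KO held 57.9% of the WT sum. Each of the 17 passed the test (limma on log2(FPKM + 1), Benjamini-Hochberg adjusted over 13023 genes, threshold 0.05), where 24.5% of all tested genes were called lower and 48.5% were called in either direction. The median log2 change of the 17 was -0.76, against -0.01 over all tested genes. It ranged from -1.41 for Mvd to -0.38 for Cyp51, and 7 genes were at least 2-fold lower on that scale, where 1.59% of all tested genes were. In all 17 the 3 CHIP-KO libraries lay below the 3 WT libraries, an arrangement that 31.1% of tested genes showed. Because these are bulk samples, fewer cells with an active pathway and less RNA per cell cannot be told apart.

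**Figure D1:**
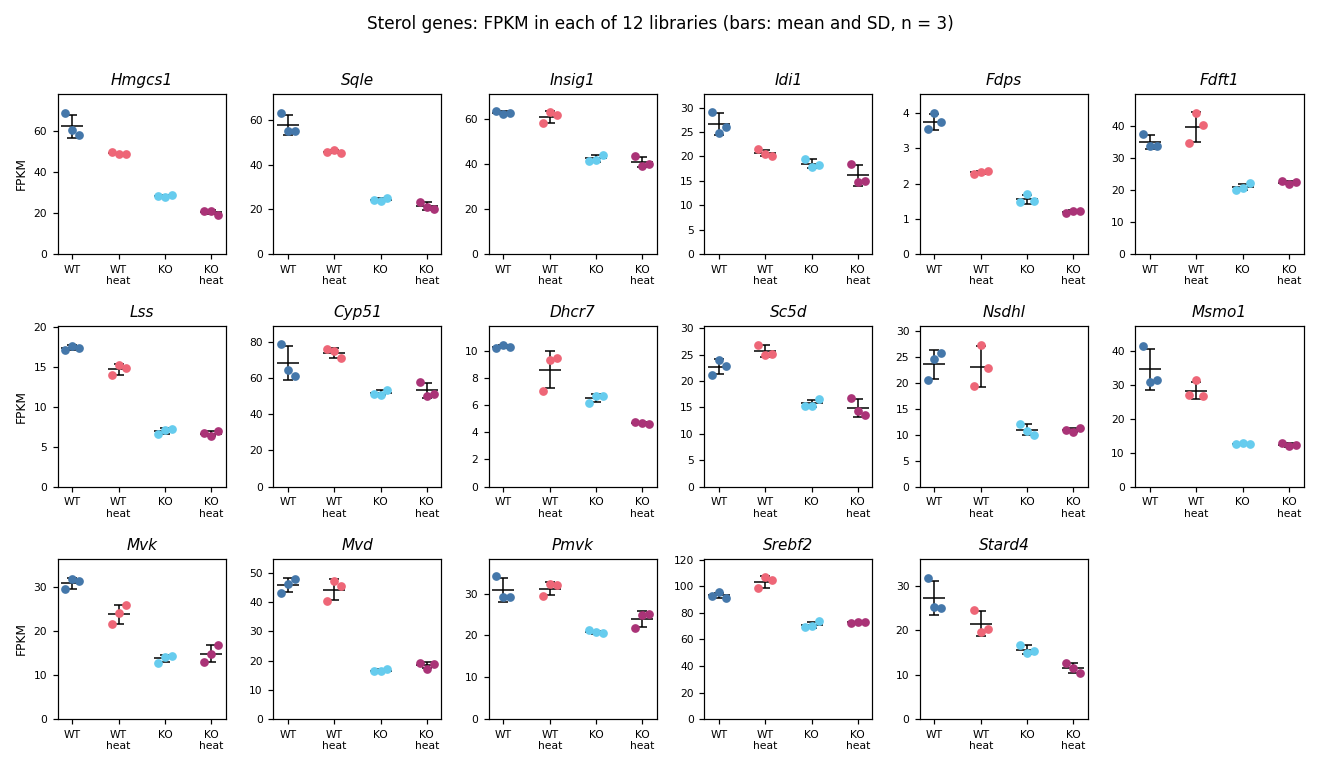
FPKM of the 17 sterol genes (vertical axes, each from 0) in the 4 groups (horizontal axes; KO is CHIP-KO), with 1 point per library and bars for the mean and SD of 3 libraries. In every panel the CHIP-KO points lie below the WT points of the same treatment.

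The early steps run from Hmgcs1, which makes HMG-CoA, through the kinases Mvk and Pmvk to the decarboxylase Mvd. Mvd was at 43.3, 46.3 and 48.1 FPKM in unheated WT libraries and at 16.4, 16.4 and 17 FPKM in unheated CHIP-KO libraries. Its WT libraries lay far above its CHIP-KO libraries. Its log2 change of -1.41 ± 0.07 (SE; limma adjusted p = 1.96e-08) corresponded to a value of FPKM + 1 that was 2.66-fold lower. Hmgcs1 stood at 68.8, 60.6 and 58.2 FPKM in unheated WT and at 28.5, 28.1 and 29.0 FPKM in unheated CHIP-KO libraries. The groups were again far apart, with WT replicate 1 the highest, and the log2 change was -1.10 ± 0.06 (limma adjusted p = 7.68e-08). Mvk, mevalonate kinase, was at 29.5, 31.8 and 31.4 FPKM in WT and at 12.8, 14.1 and 14.4 FPKM in CHIP-KO libraries, a log2 change of -1.11 ± 0.09 (limma adjusted p = 2.25e-06). Pmvk, the next kinase, fell less, with a log2 change of -0.54 ± 0.07 and WT libraries at 29.1 to 34.2 against 20.5 to 21.2 FPKM. The isomerase Idi1 changed by a similar -0.50 ± 0.08 and Fdps, which builds farnesyl diphosphate, by -0.90 ± 0.06 on the log2 scale.

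Farnesyl diphosphate is committed to sterols by the squalene synthase Fdft1, and squalene is then oxidised by Sqle and cyclised by Lss. Sqle was at 63.0, 55.1 and 54.9 FPKM in unheated WT and at 24, 23.7 and 25 FPKM in unheated CHIP-KO libraries. No library of the one group came near the other. Sqle, a rate-controlling enzyme of the pathway, was 2.32-fold lower on the scale of FPKM + 1 (log2 change -1.21 ± 0.07, limma adjusted p = 6.35e-08). Lss was at 17.1, 17.7 and 17.5 FPKM in WT and at 6.59, 7.10 and 7.24 FPKM in CHIP-KO libraries, a log2 change of -1.21 ± 0.05 (limma adjusted p = 1.21e-08). Fdft1 changed by -0.72 ± 0.08 on the log2 scale. It overlaps Ctsb, an abundant cathepsin gene on the opposite strand at a mean of 101 FPKM, by 774 bases, and without stated strand use in the counting reads from the overlap cannot be assigned.

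After lanosterol, Cyp51, Msmo1 and Nsdhl remove methyl groups and Sc5d and Dhcr7 adjust the double bonds. Msmo1, the methylsterol monooxygenase, was at 41.5, 30.7 and 31.5 FPKM in unheated WT and at 12.4, 12.8 and 12.6 FPKM in unheated CHIP-KO libraries. WT replicate 1 was the highest and the CHIP-KO libraries were nearly equal, and the log2 change was -1.37 ± 0.10 (limma adjusted p = 9.35e-07). Nsdhl, the dehydrogenase that acts on its product, changed by -1.04 ± 0.12. Cyp51, the lanosterol demethylase, changed least of the 17 (log2 change -0.38 ± 0.09, limma adjusted p = 0.00441), with WT libraries at 79.1, 64.7 and 61.0 FPKM and CHIP-KO libraries at 51.4, 50.8 and 53.6 FPKM. Its WT replicate 1 again stood above the others. Sc5d and Dhcr7, the late desaturase and reductase, changed by -0.50 ± 0.08 and -0.59 ± 0.09.

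The 3 genes of the list outside the enzyme chain were lower as well. Srebf2 itself was at 92.9, 95.5 and 91.5 FPKM in unheated WT and at 69.3, 69.8 and 73.6 FPKM in unheated CHIP-KO libraries. The groups did not overlap, and the log2 change of -0.39 ± 0.05 (limma adjusted p = 4.51e-05) was among the smallest of the list. Insig1, the sterol-regulated SREBP retention factor, stood at 63.3, 62.3 and 62.8 FPKM in WT and at 41.5, 42.0 and 44.2 FPKM in CHIP-KO libraries, a log2 change of -0.55 ± 0.05. Stard4, a cytosolic sterol carrier, changed by -0.76 ± 0.11.

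After heat all 17 sterol genes were again lower in CHIP-KO than in WT cells, where 19.1% of tested genes were called lower and 42.4% in either direction. The median log2 change was -0.75, against 0.01 over all tested genes. It ranged from -1.23 for Hmgcs1 to -0.35 for Idi1, with 6 genes at least 2-fold lower, where 2.23% of tested genes were. Heated WT libraries held Hmgcs1 at 49.7, 49.2 and 48.9 FPKM and heated CHIP-KO libraries held it at 21, 21 and 19.3 FPKM, again far apart (log2 change -1.23 ± 0.06, limma adjusted p = 4.78e-08). In all 17 genes the heated CHIP-KO libraries lay below the heated WT libraries, as in 22.7% of tested genes. The summed level was 597 to 639 FPKM in heated WT and 359 to 379 FPKM in heated CHIP-KO libraries, 59.4% of WT. With WT replicate 1 of both treatments left out, all 17 were still called lower in both comparisons, with medians of -0.67 without heat and -0.75 after heat. None of the alternative settings in which a gene was tested, the omission of each library in turn included, ended any of these calls in either comparison. There were 23 settings for 16 of the genes and 22 for Fdps, which is below the filter at a mean of 5 FPKM.

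**Figure D2:**
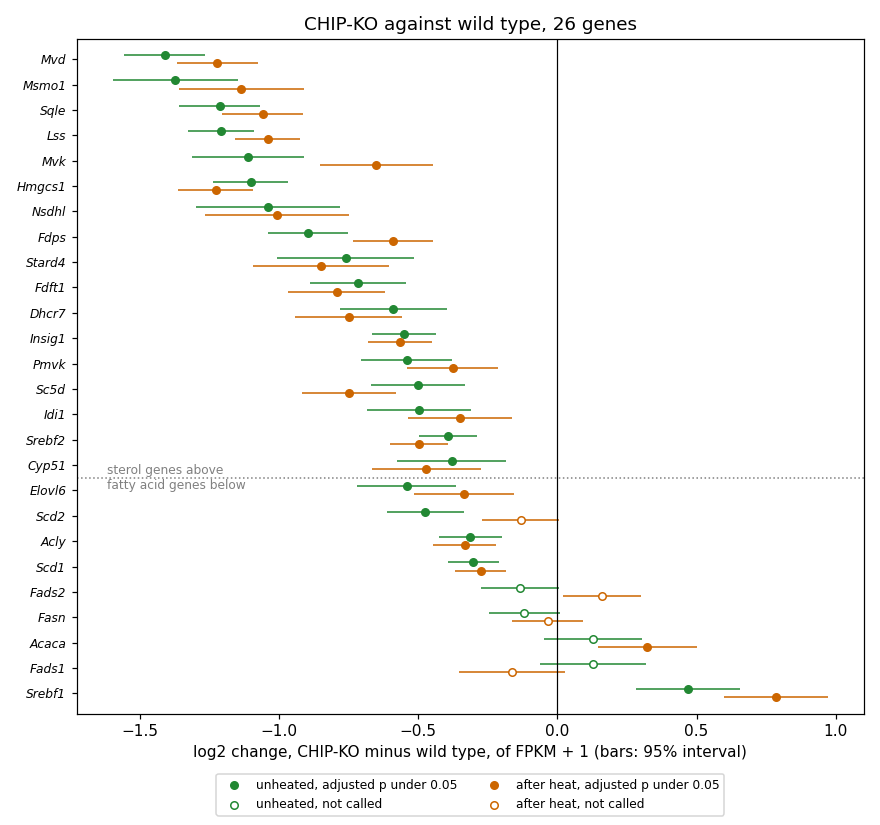
Log2 change of FPKM + 1, CHIP-KO minus WT (horizontal axis), for each of the 26 genes without heat (green) and after heat (orange), with 95% intervals from limma and filled points where the adjusted p was under 0.05. The 17 sterol genes are all left of 0 in both comparisons, and the 9 fatty acid genes lie on both sides.

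RefSeq promoter windows (GRCm38.p6, 250 bases before the transcript start) were found for 19 of the 26 genes, 24 windows in all. The windows were searched on both strands for 4 short motifs. CCAAT, the box bound by NF-Y, a usual partner of SREBPs, was present for 13 of 13 sterol genes with a window and for 2 of 6 fatty acid genes, against 37.5% of all 27025 genes in the table. The sterol regulatory element core TCACNCCA was present for 3 of the 13 sterol genes (Hmgcs1, Msmo1 and Srebf2) and for none of the 6 fatty acid genes, against 4.2% of all genes. The GC box GGGCGG, bound by SP1, was present for 12 sterol and 3 fatty acid genes, against 35.4%, and the E-box CACGTG for 3 (Dhcr7, Insig1 and Sc5d) and 0, against 6.86%. A match is a string of letters and not a shown binding site, no match overlapped one of another motif, and genes with several windows had more chances of a match. Counted by window, CCAAT was in 13 of 16 sterol and 3 of 8 fatty acid windows, against 33.8% of all windows. The shares over all genes and windows were not limited to genes expressed in these cells. By the GENCODE M21 annotation, 12 of the 24 windows touch an exon of their own gene and 4 touch an exon of another gene. The counts above are for whole windows, exons included. Outside GENCODE exons no CCAAT was left for Idi1, Cyp51, Dhcr7 and Msmo1, and the core of Msmo1 was lost too. The other sterol genes with a window kept a CCAAT match there, as did Fasn and Srebf1. The shares over all genes and windows are also for whole windows. For 19 of the 24, bases just after the start were found in a GENCODE transcript of the gene. Some windows lie inside the gene by its deposited position. The only window of Acaca, without a match, begins at chr11:84195188, and the gene at 84129672. Dhcr7 has CCAAT only in window 3, which begins at chr7:143829964, and the gene at 143823145.

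Stretches of 6 sterol gene promoters are shown for the spacing and number of these matches, beside 2 fatty acid genes for contrast, each 5′ to 3′ on the strand of the gene, in lower case, with CCAAT (or ATTGG on the other strand) and the core TCACNCCA in capitals. Each is the part of the window that touches no GENCODE exon. All 6 sterol genes are among those that kept CCAAT outside exons.
Hmgcs1 (chr13:119690101-119690350, plus strand): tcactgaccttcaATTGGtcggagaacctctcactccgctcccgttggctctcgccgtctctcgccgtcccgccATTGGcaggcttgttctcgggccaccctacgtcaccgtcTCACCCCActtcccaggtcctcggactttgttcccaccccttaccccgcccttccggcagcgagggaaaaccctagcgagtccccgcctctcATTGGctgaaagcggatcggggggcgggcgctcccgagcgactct
Mvk (chr5:114444061-114444268, plus strand): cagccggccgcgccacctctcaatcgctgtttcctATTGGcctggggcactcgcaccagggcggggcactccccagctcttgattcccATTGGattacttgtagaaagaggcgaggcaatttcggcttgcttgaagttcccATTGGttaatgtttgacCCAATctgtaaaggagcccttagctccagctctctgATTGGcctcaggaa
Mvd (chr8:122443423-122443672, minus strand): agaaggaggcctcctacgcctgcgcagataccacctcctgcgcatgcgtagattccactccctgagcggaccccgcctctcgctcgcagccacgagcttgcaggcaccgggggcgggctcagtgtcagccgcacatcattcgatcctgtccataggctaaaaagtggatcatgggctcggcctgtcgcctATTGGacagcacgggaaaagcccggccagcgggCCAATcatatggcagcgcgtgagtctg
Lss (chr10:76531355-76531587, plus strand): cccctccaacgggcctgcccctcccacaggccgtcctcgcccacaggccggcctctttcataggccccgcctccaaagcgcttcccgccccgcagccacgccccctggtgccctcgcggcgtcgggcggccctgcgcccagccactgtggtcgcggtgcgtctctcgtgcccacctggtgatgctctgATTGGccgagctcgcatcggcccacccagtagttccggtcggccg
Sc5d (chr9:42264301-42264550, minus strand): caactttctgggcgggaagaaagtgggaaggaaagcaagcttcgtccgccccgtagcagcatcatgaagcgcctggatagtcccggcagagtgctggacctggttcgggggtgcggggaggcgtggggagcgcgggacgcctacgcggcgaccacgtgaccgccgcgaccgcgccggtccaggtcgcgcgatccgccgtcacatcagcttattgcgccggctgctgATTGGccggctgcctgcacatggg
Srebf2 (chr15:82147019-82147180, plus strand): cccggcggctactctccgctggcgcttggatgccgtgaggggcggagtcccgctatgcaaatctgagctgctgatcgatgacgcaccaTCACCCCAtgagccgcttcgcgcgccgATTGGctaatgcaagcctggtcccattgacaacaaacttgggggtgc
Fasn (chr11:120824548-120824797, minus strand): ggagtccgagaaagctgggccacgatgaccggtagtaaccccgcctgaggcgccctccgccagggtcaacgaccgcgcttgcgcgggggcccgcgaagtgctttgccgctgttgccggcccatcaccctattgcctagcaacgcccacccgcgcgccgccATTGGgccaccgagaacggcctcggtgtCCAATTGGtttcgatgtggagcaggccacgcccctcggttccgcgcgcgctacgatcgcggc
Acly (chr11:100528001-100528250, minus strand): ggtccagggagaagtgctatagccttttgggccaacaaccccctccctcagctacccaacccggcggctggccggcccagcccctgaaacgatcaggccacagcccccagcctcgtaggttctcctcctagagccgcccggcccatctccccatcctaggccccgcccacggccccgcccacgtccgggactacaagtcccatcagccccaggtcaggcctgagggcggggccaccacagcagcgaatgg
Hmgcs1 carries 3 CCAAT matches and 1 core, Mvk 5 CCAAT matches, Mvd 2, and Lss and Sc5d 1 each. Srebf2 carries 1 of each kind. Fasn carries 3 CCAAT matches, of which 1 pair overlaps, and did not pass the test in either comparison of genotypes. Acly carries no CCAAT or core and was lower in CHIP-KO in both. A link between matches and changes was not tested.

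**Figure D3:**
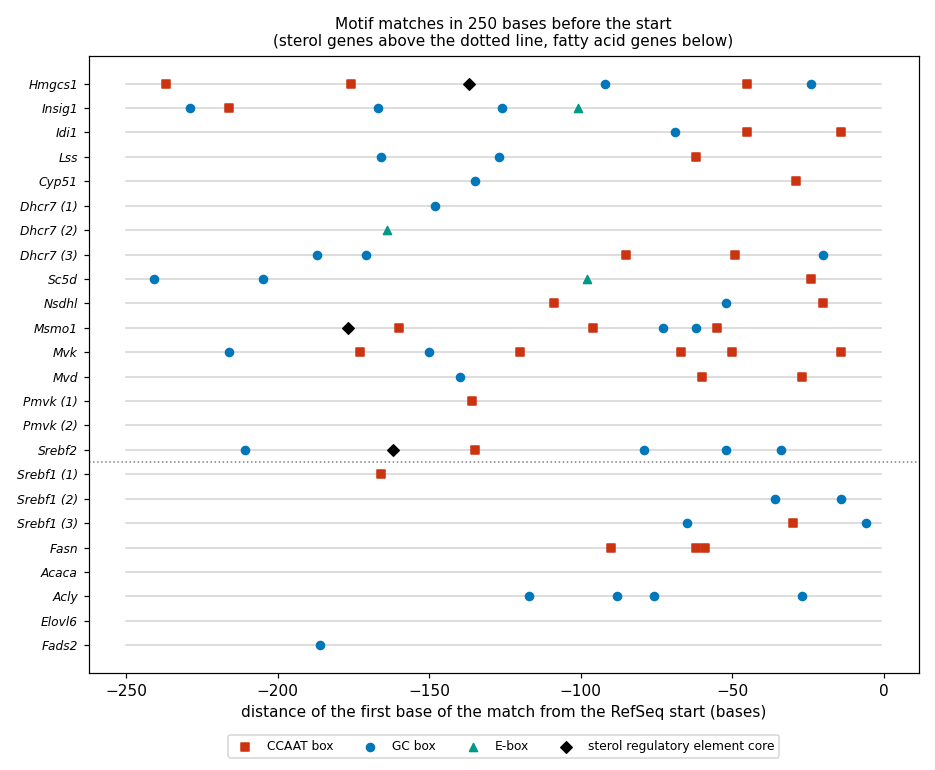
Motif matches along 250 bases before the RefSeq start (horizontal axis, distance of the first base of the match from the start) in the 24 windows of 19 genes, with sterol genes above the dotted line and a number in brackets where a gene has several windows. CCAAT matches (red squares) occur in 13 of 16 sterol windows and 3 of 8 fatty acid windows, with matches inside GENCODE exons included.

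The 9 fatty acid genes did not move as a block. Without heat 4 were lower in CHIP-KO (Elovl6, Scd2, Acly and Scd1), 1 was higher (Srebf1) and 4 did not pass the test (Fasn, Acaca, Fads1 and Fads2). Over all tested genes 24.5% were called lower, 23.9% higher and 48.5% in either direction. Their median log2 change was -0.14, and their summed level was 1153 to 1178 FPKM in WT and 955 to 985 FPKM in CHIP-KO libraries, with Scd2 the highest of the 9. Srebf1 was at 40.5, 44.1 and 41.8 FPKM in unheated WT and at 59.2, 58.9 and 57.9 FPKM in unheated CHIP-KO libraries. The CHIP-KO libraries lay above all WT libraries, opposite in direction to Srebf2 (log2 change 0.47 ± 0.08, limma adjusted p = 0.000883).

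Elovl6, which lengthens palmitate, was at 24.9, 24.6 and 24 FPKM in unheated WT and at 16.8, 15.9 and 16.9 FPKM in unheated CHIP-KO libraries. The groups did not overlap (log2 change -0.54 ± 0.08, limma adjusted p = 0.000223). Scd2 was at 609, 554 and 540 FPKM in WT and at 401, 412 and 410 FPKM in CHIP-KO libraries. WT replicate 1 was the highest, and no CHIP-KO library reached the WT range (log2 change -0.47 ± 0.06, limma adjusted p = 9.4e-05). Acly, which makes cytosolic acetyl-CoA for both pathways, was at 97.5, 107 and 105 FPKM in WT and at 82.2, 83.8 and 82.5 FPKM in CHIP-KO libraries, a log2 change of -0.31 ± 0.05, and Scd1 changed by -0.30 ± 0.04. For the genes that did not pass, the log2 change and its 95% interval were -0.12 (-0.25 to 0.0080) for the fatty acid synthase gene Fasn, 0.13 (-0.05 to 0.30) for the acetyl-CoA carboxylase gene Acaca, 0.13 (-0.06 to 0.32) for Fads1 and -0.14 (-0.28 to 0.0048) for Fads2.

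**Figure D4:**
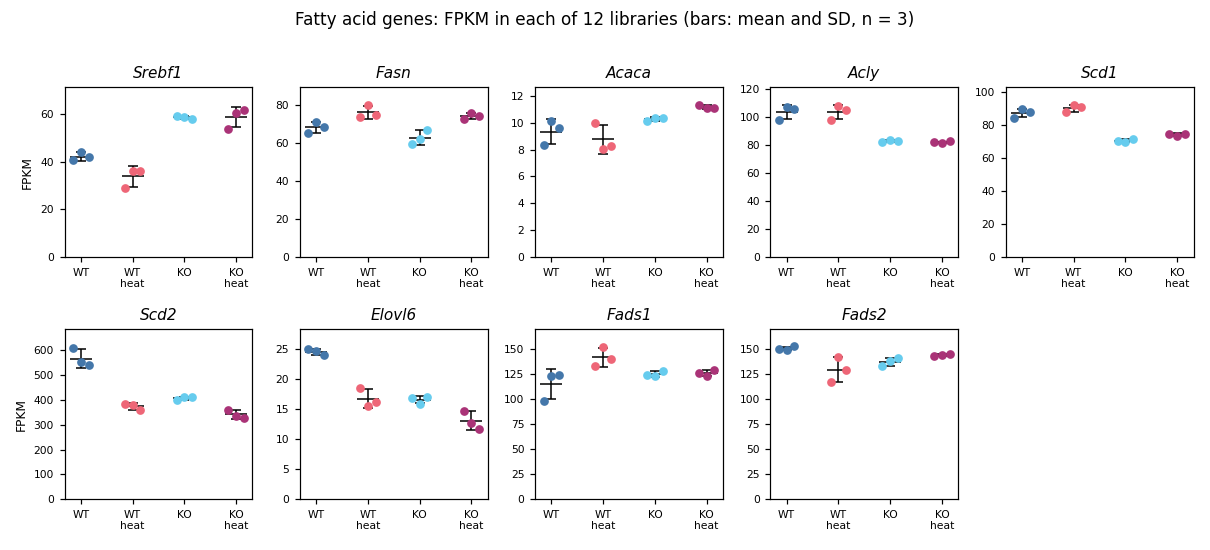
FPKM of the 9 fatty acid genes (vertical axes, each from 0) in the 4 groups (horizontal axes; KO is CHIP-KO), with 1 point per library and bars for the mean and SD of 3 libraries. Srebf1 is higher and Acly, Scd1 and Elovl6 are lower in CHIP-KO with either treatment, while Scd2 falls from 568 to 375 FPKM on average with heat in WT.

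After heat 3 fatty acid genes were lower in CHIP-KO than in WT (Elovl6, Acly and Scd1), 2 were higher (Srebf1 and Acaca) and 4 did not pass. Over all tested genes 19.1% were called lower, 23.3% higher and 42.4% in either direction. Srebf1 was at 28.9, 36.3 and 36.2 FPKM in heated WT and at 53.9, 60.6 and 61.8 FPKM in heated CHIP-KO libraries. Replicate 1 was the lowest of both groups, which did not overlap (log2 change 0.78 ± 0.08, limma adjusted p = 2.45e-05). Acaca was at 9.99, 8.01 and 8.25 FPKM in WT and at 11.3, 11.1 and 11.1 FPKM in CHIP-KO libraries. Its log2 change of 0.32 ± 0.08 (limma adjusted p = 0.00741) did not pass after scaling to an equal sum per library (0.25, limma adjusted p = 0.0538). Scd2, lower in CHIP-KO without heat, had a log2 change of -0.13 after heat (95% interval -0.27 to 0.0068), and Fads2 one of 0.16 (0.02 to 0.30), neither of which passed.

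With 1 hour at 43 °C in WT cells, 9 sterol genes fell, 1 rose (Srebf2) and 7 did not pass, beside 30.5% of tested genes called lower, 28.1% higher and 58.7% in either direction. The median log2 change of the 17 was -0.23, against -0.02 over all tested genes, and none reached 2-fold. Fdps was at 3.54, 4.0 and 3.74 FPKM in unheated and at 2.27, 2.34 and 2.37 FPKM in heated WT libraries. The groups did not overlap, and it had the largest change of the 17 (log2 change -0.52 ± 0.06, limma adjusted p = 4.93e-05). Hmgcs1 (-0.33 ± 0.06), Sqle (-0.32 ± 0.07), Idi1 (-0.35 ± 0.08), Mvk (-0.36 ± 0.09) and Lss (-0.23 ± 0.05) also fell without overlap, and these calls and that of Fdps held in all alternatives run for them. Msmo1 (-0.27 ± 0.10), Dhcr7 (-0.24 ± 0.09) and Stard4 (-0.33 ± 0.11) fell as well. Srebf2 rose by 0.15 ± 0.05, with unheated libraries at 91.5 to 95.5 and heated libraries at 98.5 to 107 FPKM, but its change was -0.09 after scaling to an equal sum per library. The 7 that did not pass were Insig1, Fdft1, Cyp51, Sc5d, Nsdhl, Mvd and Pmvk, at -0.05 to 0.17 on the log2 scale.

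The calls of Msmo1, Dhcr7, Stard4 and Srebf2 were lost when single libraries were left out. Without WT replicate 1 of the unheated group the log2 change of Msmo1 was no longer called, nor was it without replicate 1 or 3 of heated WT, any 1 of the 3 unheated CHIP-KO libraries or replicate 2 or 3 of heated CHIP-KO (-0.27 to -0.13, limma adjusted p = 0.0529 to 0.126). The Dhcr7 call was lost without any 1 of the unheated WT libraries or without replicate 1 of heated WT (-0.25 to -0.12, limma adjusted p = 0.0556 to 0.077). Stard4 was not called without replicate 1 of unheated WT or without replicate 2 or 3 of heated WT (-0.29 to -0.22, limma adjusted p = 0.076 to 0.0943). Srebf2 was not called without replicate 3 of unheated WT or without replicate 2 or 3 of heated WT (0.12 to 0.14, limma adjusted p = 0.06 to 0.0647). With both WT replicates 1 left out, 7 sterol genes fell and 3 rose, with a median of -0.10.

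In CHIP-KO cells heat lowered 4 sterol genes (Hmgcs1, Fdps, Dhcr7 and Stard4) and raised none, beside 11.4% of tested genes called lower, 8.65% higher and 20% in either direction. The median log2 change was -0.06, against -0.0018 over all tested genes. Hmgcs1 was at 28.5, 28.1 and 29.0 FPKM in unheated and at 21, 21 and 19.3 FPKM in heated CHIP-KO libraries. It fell without overlap (log2 change -0.46 ± 0.06, limma adjusted p = 0.000563), and this call held in all 23 alternatives, as did that of Dhcr7 (-0.40 ± 0.09, limma adjusted p = 0.00862). The 13 that did not pass ran from -0.20 (Idi1) to 0.19 (Pmvk). The Fdps call (-0.21 ± 0.06, limma adjusted p = 0.0412) was lost without any 1 of 9 libraries, namely replicates 2 and 3 of unheated WT, replicate 3 of heated WT and all 6 CHIP-KO libraries (limma adjusted p = 0.0515 to 0.155). The Stard4 call (-0.42 ± 0.11, limma adjusted p = 0.0226) was lost without replicate 1 or 3 of unheated or replicate 2 or 3 of heated CHIP-KO (limma adjusted p = 0.0593 to 0.087). The count of 4 went to 2 without any 1 of those same 4 libraries and to 7 called (5 lower, 2 higher) without both WT replicates 1. Scaling each library to an equal sum of FPKM called 16 of the 17 lower and shifted the median of all tested genes to -0.29. Gm23935, a 57-base gene listed as a microRNA and named after its values were seen, held 2.97 to 4.67% of the summed FPKM in unheated and 12.4 to 17% in heated CHIP-KO libraries, and 2.52 to 3.77% and 13.2 to 15.2% in WT.

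**Figure D5:**
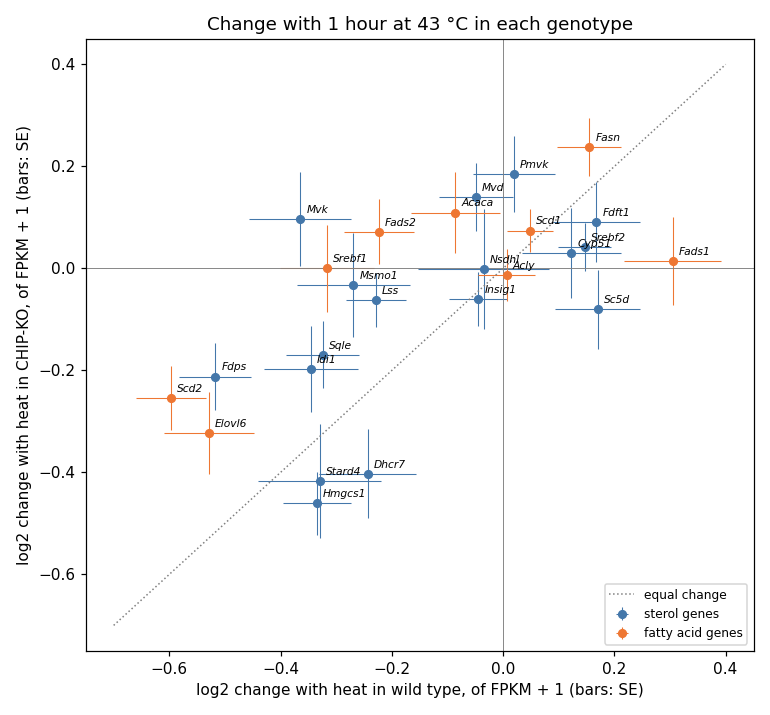
Log2 change of FPKM + 1 with heat in WT (horizontal axis) and in CHIP-KO cells (vertical axis) for the 26 genes, with SE bars, sterol genes in blue and fatty acid genes in orange, and a dotted line for equal change. Hmgcs1, Fdps, Dhcr7, Stard4, Scd2 and Elovl6 lie below 0 on both axes and were called in both genotypes, while the positive changes of Fasn on both axes and of Srebf2 in WT turned negative after scaling to an equal sum per library.

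Among the fatty acid genes heat in WT lowered Scd2, Elovl6, Srebf1 and Fads2 and raised Fads1 and Fasn, the last of which was at -0.08 after scaling to an equal sum per library. Over all tested genes 30.5% were called lower, 28.1% higher and 58.7% in either direction. Scd2 went from 609, 554 and 540 FPKM in unheated to 385, 381 and 358 FPKM in heated WT libraries. No heated library reached the unheated range (log2 change -0.60 ± 0.06, limma adjusted p = 1.45e-05), and Elovl6 fell by a similar 0.53 on the log2 scale, from 24.5 ± 0.49 to 16.7 ± 1.59 FPKM (SD, n = 3). Fads1, a desaturase gene for polyunsaturated fatty acids, went from 97.5, 123 and 124 FPKM to 133, 151 and 140 FPKM. Unheated replicate 1 was the lowest, the groups did not overlap (log2 change 0.30 ± 0.09, limma adjusted p = 0.0104), and the change was 0.07 after equal-sum scaling. Fads2, the related desaturase gene beside it, went the other way, from 150, 149 and 152 FPKM to 117, 142 and 128 FPKM (-0.22 ± 0.06, limma adjusted p = 0.0107). Acly, Scd1 and Acaca were at 0.01, 0.05 and -0.09 and did not pass. The rise of Fasn (0.16 ± 0.06, limma adjusted p = 0.0371) was not called without any 1 of 7 libraries, namely replicates 1 and 3 of unheated WT, 2 and 3 of heated WT, 2 of unheated CHIP-KO, and 2 and 3 of heated CHIP-KO (limma adjusted p = 0.0512 to 0.124).

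In CHIP-KO cells heat lowered Scd2 (-0.25 ± 0.06, limma adjusted p = 0.0162) and Elovl6 (-0.32 ± 0.08, limma adjusted p = 0.0174). It raised Fasn (0.24 ± 0.06, limma adjusted p = 0.0146, and -0.10 after equal-sum scaling), and 6 fatty acid genes did not pass. Over all tested genes 11.4% were called lower, 8.65% higher and 20% in either direction. Srebf1 was at 58.7 ± 0.651 FPKM before and 58.8 ± 4.31 FPKM after heat (SD, n = 3). Scd2 was at 401, 412 and 410 FPKM before and at 361, 337 and 328 FPKM after heat, without overlap. All 3 calls were lost when single libraries were left out. Scd2 was lost without replicate 2 or 3 of either CHIP-KO group (limma adjusted p = 0.0604 to 0.0683). Elovl6 was lost without replicate 1 or 3 of unheated or 2 or 3 of heated CHIP-KO (limma adjusted p = 0.0597 to 0.0683), and Fasn without replicate 1 or 2 of unheated or 2 of heated CHIP-KO (limma adjusted p = 0.0571 to 0.0675). The count of 3 went to 1 without replicate 1, 2 or 3 of unheated or replicate 3 of heated CHIP-KO, and to 0 without replicate 2 of heated CHIP-KO.

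Whether the response to heat differed between genotypes was tested as the interaction, in which 35.2% of all genes were called, 17.9% upward and 17.3% downward. A positive value means a higher response in CHIP-KO. Of the 17 sterol genes 2 were called, both upward, and 15 were not. Mvk went from 29.5, 31.8 and 31.4 to 21.6, 24.1 and 25.9 FPKM with heat in WT, and from 12.8, 14.1 and 14.4 to 12.9, 14.7 and 16.9 FPKM in CHIP-KO libraries. It fell without overlap in WT and its groups overlapped in CHIP-KO (interaction 0.46 ± 0.13, limma adjusted p = 0.018), and no alternative ended this call. Fdps, which fell in both genotypes, had an interaction of 0.31 ± 0.09 (limma adjusted p = 0.0239). This call was lost without replicate 2 of unheated WT, replicate 1 or 3 of unheated CHIP-KO or replicate 2 or 3 of heated CHIP-KO (limma adjusted p = 0.0505 to 0.0632), which took the sterol count to 1. The Fdps call was also lost with limma voom on the recovered fragments (0.27, adjusted p = 0.22), with a pseudocount of 0.1 and with no filter. Hmgcs1, called with heat in both genotypes, had an interaction of -0.13 (95% interval -0.32 to 0.06), and the largest negative value was that of Sc5d (-0.25, -0.49 to -0.01, limma adjusted p = 0.0963). With both WT replicates 1 left out 5 sterol genes were called, 2 upward and 3 downward.

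Of the 9 fatty acid genes 2 had a called interaction, Scd2 (0.34 ± 0.09, limma adjusted p = 0.0118) and Fads2 (0.29 ± 0.09, limma adjusted p = 0.0258). Over all tested genes 35.2% were called, a larger share. Fads2 fell with heat in WT, whereas CHIP-KO libraries were at 133, 138 and 141 FPKM before and at 143, 144 and 145 FPKM after heat. Its call was lost without replicate 3 of heated WT, replicate 1 or 2 of unheated CHIP-KO or replicate 2 or 3 of heated CHIP-KO (limma adjusted p = 0.051 to 0.0666), and the last 4 of these took the count of fatty acid genes to 1. Both calls were lost after equal-sum scaling, at 0.24 for Scd2 (limma adjusted p = 0.0565) and 0.19 for Fads2 (limma adjusted p = 0.0585). Srebf1 (0.32, 95% interval 0.05 to 0.58, limma adjusted p = 0.0616) and Fads1 (-0.29, -0.56 to -0.02, limma adjusted p = 0.0876) did not pass. With both WT replicates 1 left out 5 fatty acid genes were called, 4 upward and 1 downward.

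Genes around the list were followed by 4 further sets. Of 9 other sterol synthesis enzymes 6 were lower and none higher in CHIP-KO without heat, where 24.5% of all tested genes were lower and 23.9% higher, with a median log2 change of -0.42, and the most changed were Acat2 (-1.22 ± 0.10), the thiolase at the start of the pathway, and Hsd17b7 (-1.15 ± 0.05), a sterol ketoreductase. After heat 5 of the 9 were lower and 2 higher (19.1% and 23.3% of all tested genes), with Hsd17b7 at -1.11 ± 0.05, Acat2 at -0.83 ± 0.10 and Por, the electron donor of Cyp51 and Sqle, at 0.59 ± 0.07. Heat lowered 5 and raised 1 of the 9 in WT (30.5% and 28.1% of all tested genes), led by Lbr (-0.76 ± 0.06), a sterol reductase of the nuclear envelope. The raised gene, the sterol reductase Tm7sf2 (0.34), was at 0.16 and not called after equal-sum scaling. In CHIP-KO none of the 9 passed the limma test with heat, against 20% of all tested genes, at -0.12 to 0.23 on the log2 scale, while 1 had an unadjusted p under 0.05 and limma voom on fragments called 2. The interaction was called upward for 3 of the 9 and downward for none, against 17.9% and 17.3% of all tested genes, and not all of these calls held when single libraries were left out.

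Of 8 genes that move, cleave or degrade SREBPs and their partners 4 were higher and none lower in CHIP-KO without heat, so that the share called was near the 48.5% of all tested genes called in either direction (23.9% higher). They were led by the ubiquitin ligase Rnf145 (0.44 ± 0.05), the protease Mbtps1 (0.29 ± 0.05), which makes the first cut in SREBPs, and Scap (0.19 ± 0.06), their escort. The Scap call was lost without replicate 3 of unheated WT or replicate 1 or 3 of unheated CHIP-KO (0.14 to 0.20, limma adjusted p = 0.0572 to 0.102). After heat 5 were higher and none lower, where 23.3% of all tested genes were higher and 19.1% lower. Scap (0.21 ± 0.06) was among the 5, and its call was lost without replicate 1 of heated WT or replicate 2 or 3 of heated CHIP-KO (limma adjusted p = 0.059 to 0.0744). In WT heat lowered 4 and raised 1 of the 8, with Rnf139 at -0.51 ± 0.05, against 30.5% lower and 28.1% higher of all tested genes. In CHIP-KO heat lowered 2 and raised 1, with Rnf139 at -0.41 ± 0.05, against 11.4% lower and 8.65% higher of all tested genes. The raised gene, Fbxw7 (0.29), a subunit of a ubiquitin ligase that targets nuclear SREBPs, was not called without replicate 2 or 3 of unheated or replicate 1 or 3 of heated CHIP-KO (limma adjusted p = 0.0578 to 0.0949). It was at 0.04 after equal-sum scaling (limma adjusted p = 0.699). The interaction was called upward for 2 and downward for 1, near the 35.2% of all tested genes called in either direction.

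Of 10 genes of LXR signalling, cholesterol export and storage 8 passed the filter, of which 7 were higher and none lower in CHIP-KO without heat (23.9% and 24.5% of all tested genes), with a median log2 change of 0.65. Abca1 and Ch25h were under 1 FPKM in every unheated WT library. They passed the filter mainly through CHIP-KO libraries, so their higher calls are not independent of it. The 2 genes that did not pass went opposite ways in unheated WT and CHIP-KO libraries. Nr1h3 was at 0.201 and 0.526 FPKM on average, and Abcg1 at 0.086 and 0.0066 FPKM. Abca1, the exporter that loads cholesterol onto apolipoproteins and a target of LXR, was at 0.305 ± 0.052 FPKM in unheated WT and at 7.07 ± 0.592 FPKM in unheated CHIP-KO libraries (SD, n = 3). It changed by 2.63 ± 0.09 on the log2 scale, which understates the ratio of such low levels. Ch25h, which makes a side-chain oxysterol, changed by 1.08 ± 0.17 and Lipa, the lysosomal lipase, by 1.01 ± 0.05. After heat 2 were higher (Abca1 at 2.05 ± 0.09 and Lpcat3 at 0.36 ± 0.07) and 4 lower (23.3% and 19.1% of all tested genes), among them Mylip (-0.75 ± 0.11), the ligase also called IDOL. Heat in WT raised 4 and lowered 1 (28.1% and 30.5% of all tested genes), with Mylip at 1.60 ± 0.11, the sterol carrier Npc2 at 1.34 ± 0.05 and Lipa at 1.17 ± 0.05, while in CHIP-KO it raised 1, Mylip (0.47 ± 0.11), at 0.15 and not called after equal-sum scaling, where 8.65% of all tested genes were raised. Cd68, listed as a macrophage marker, was also higher in heated libraries, at the levels given above, and its part in the changes of the lysosomal genes Npc2 and Lipa was not tested. The interaction was called downward for 5 and upward for none, against 17.3% and 17.9% of all tested genes.

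Of 17 other genes of fatty acid synthesis and activation 8 were lower and 3 higher in CHIP-KO without heat, against 24.5% and 23.9% of all tested genes. The most changed were Elovl7 (1.06 ± 0.06), an elongase, Mid1ip1 (-0.80 ± 0.05), an activator of acetyl-CoA carboxylase, and Slc25a1 (-0.75 ± 0.07), the mitochondrial citrate exporter that supplies Acly. After heat 8 were lower and 4 higher (19.1% and 23.3% of all tested genes), with Lpin1 at -0.99 ± 0.07, Acsl3 at -0.72 ± 0.06 and Slc25a1 at -0.70 ± 0.07. Heat in WT raised 8 and lowered 5 (28.1% and 30.5% of all tested genes), led by Fads3 (-1.10 ± 0.06). Among those raised, Acacb reached 1 FPKM only in heated WT libraries and passed the filter through them. In CHIP-KO heat lowered 2, Gpam and Elovl7, and raised none, where 11.4% of all tested genes were lower and 8.65% higher. The Gpam call was lost without replicate 1 or 2 of unheated or 2 or 3 of heated CHIP-KO (limma adjusted p = 0.0506 to 0.0698). The Elovl7 call was lost without replicate 2 or 3 of unheated or any 1 of the heated CHIP-KO libraries (limma adjusted p = 0.0533 to 0.102). The interaction was called upward for 5 and downward for 6, against 17.9% and 17.3% of all tested genes.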

How the data were processed

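RNA-seq of 12 MEF libraries (4 groups of 3, from the samples' titles, genotype and treatment labels) was used. The authors deposited 1 table of FPKM values with gene length and gene position. Per the submitters' processing notes, the aligner was HISAT2. The aligner version, the counting tool, strand use, annotation and genome build were not given in the sources used here. Of the 26 genes' positions in the table, 22 are identical to GENCODE M21 (GRCm38). Multiplied by gene length, 100% of the FPKM values above 0 came out as whole fragments (tolerance 0.01), which gave 15591924 to 26954112 fragments per library.

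Genes with 1 FPKM in at least 3 of 12 libraries were tested with limma 3.58.1 in R 4.3.3 on log2(FPKM + 1), with 1 mean per group, a trended prior and Benjamini-Hochberg adjustment over 13023 genes, two-sided, threshold 0.05. All changes refer to log2(FPKM + 1), so those of low genes are understated. The fit was also run on simulated data with the same spread in all libraries. The real libraries differed in spread, so that run gives no support for the calls here. Errors beside FPKM are SDs and beside log2 changes SEs, and 95% intervals use the moderated t distribution. Because the values are FPKM, limma voom on the recovered fragments was an alternative only. All 26 genes were named, with Stub1 and Hspa1a as checks and up to 3 genes per further list, those past the threshold with the largest change in the comparison described. Other names (markers, Gm23935, overlapping genes, Nr1h3, Abcg1 and Acacb) were chosen after their values were seen. The 26 genes, the further lists and the alternatives were chosen with earlier results of these data known. Single values of some genes of the further lists are not reported here, though the lists' counts include them. Promoter sequences are RefSeq's (GRCm38.p6).

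Same-numbered libraries of different groups had correlations of residuals of -0.12 to 0.33, over 0.1 in 2 of 18 pairs, so the numbers were not taken as pairs. No 2 libraries agreed within sampling noise. Alternatives were a pseudocount of 0.1, no filter, a mean of at least 5 FPKM, quantile, equal-sum and median-of-ratios scaling, library weights, a replicate block, voom, the compared groups alone, both WT replicates 1 left out and each library left out.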

Additional observations from a re-analysis of the deposited data

Results flagged for a closer look

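The response to heat differed between genotypes for the genes below by the interaction test in limma (adjusted p under 0.05 over 13023 genes). Values are the log2 change with heat in CHIP-KO minus that in WT, and 35.2% of all tested genes were called. Of the sterol genes Mvk was at 0.46 and Fdps at 0.31, and of the fatty acid genes Scd2 was at 0.34 and Fads2 at 0.29. The calls of Fdps, Scd2 and Fads2 were lost under some of the alternatives, as given above.

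Of the further lists, the sterol enzymes Lbr and Por were at 0.68 and 0.49. Of the genes of SREBP processing Insig2 was at 0.37 and Rnf145 at -0.29. The Insig2 call was lost without any 1 of 10 libraries, all but replicate 3 of unheated WT and replicate 1 of heated WT (adjusted p = 0.0531 to 0.103). Of the other fatty acid genes Fads3 was at 0.96, Me1 at 0.73, Acsl4 at 0.55, Gpam at 0.38 and Mid1ip1 at 0.33, against Elovl7 at -0.58, Acsl3 at -0.54 and Lpin1 at -0.34. Of the genes of LXR signalling and cholesterol export Npc2 was at -1.24, Lipa at -1.21, Mylip at -1.13, Ch25h at -0.76 and Abca1 at -0.57. Ch25h was at 0.424 and 0.875 FPKM on average in unheated and heated WT libraries, which overlapped, and Abca1 at 0.305 and 1.01 FPKM. At such low levels the interaction depends on the log2(FPKM + 1) scale. The alternatives were not run for the interactions of Ch25h, Abca1, Acsl3, Acsl4, Gpam, Mid1ip1 and Lpin1.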

How the results depend on the processing

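No alternative in which they were tested ended or reversed the calls of the 17 lower sterol genes in CHIP-KO, without heat or after heat. Fdps was not tested at a mean of 5 FPKM. The responses to heat and the interaction depended more on the settings. Scaling to an equal sum per library moved the median of all genes with heat to -0.21 in WT and -0.29 in CHIP-KO and turned the sign of the following log2 changes, each called with at least 1 of the scalings. In WT they became -0.21 for Pmvk, -0.089 for Srebf2, -0.079 for Fasn, -0.23 for Acly and -0.19 for Scd1. In CHIP-KO they became -0.23 for Fdft1, -0.30 for Cyp51, -0.22 for Mvk, -0.18 for Mvd, -0.29 for Srebf2, -0.33 for Srebf1, -0.096 for Fasn, -0.26 for Scd1, -0.32 for Fads1 and -0.27 for Fads2. The sign also turned, with no call under either scaling, for 3 of the 26 genes with heat in WT (Fdft1, Cyp51 and Sc5d), 2 with heat in CHIP-KO (Pmvk and Acaca) and 3 in the interaction (Nsdhl, Fasn and Scd1). Higher and lower calls over all genes went from 3664 and 3976 to 2388 and 6168 with heat in WT, from 1126 and 1481 to 567 and 8158 with heat in CHIP-KO, from 3033 and 2492 to 2347 and 3044 for CHIP-KO against WT after heat, and from 2328 and 2253 to 1765 and 2861 for the interaction.

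Counts that moved by over 1.5 times were as follows. With heat in WT the compared groups alone gave 6 sterol and 3 fatty acid genes, and a mean of at least 5 FPKM gave 5087 of all genes. With heat in CHIP-KO the sterol count was 2 with no filter, 16 with equal sums, 8 with library weights and 7 without both WT replicates 1, and the fatty acid count was 7 with equal sums and 5 with weights. Over all genes it was 1578 at a mean of 5 FPKM, 8725 with equal sums, 6201 with weights, 3913 with voom (906 higher, 3007 lower), 4414 without both WT replicates 1 and 4043 with the groups alone. For CHIP-KO against WT after heat, weights gave 8 fatty acid genes and 8590 of all genes. For the interaction the sterol count was 1 with a pseudocount of 0.1, with no filter and at a mean of 5 FPKM, 6 with weights and 5 without both WT replicates 1. The fatty acid count was 0 with no filter, 1 with quantile and 1 with equal-sum scaling, 7 with weights and 5 without both WT replicates 1, and weights gave 7403 of all genes. The cause was not tested. Leaving out 1 library at a time gave 7 to 11 sterol, 5 to 7 fatty acid and 7033 to 7622 of all genes with heat in WT, and 2 to 6, 0 to 3 and 1592 to 3462 with heat in CHIP-KO, where the count over all genes was 1592 to 1687 without any 1 of the 3 unheated CHIP-KO libraries. It gave 17 in each case, 5 to 6 and 5325 to 6853 for the genotypes without heat, 17 in each case, 5 to 7 and 4635 to 6042 after heat, and 1 to 3, 1 to 3 and 3793 to 4870 for the interaction.

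The replicate block gave, in the same order of comparisons (heat in WT, heat in CHIP-KO, genotypes without heat, genotypes after heat, interaction), 10, 5, 17, 17 and 2 sterol genes, 6, 3, 5, 5 and 3 fatty acid genes and 7637, 2606, 6299, 5525 and 4583 of all genes. Over all single genes and settings, 3929 values kept their side of the threshold, of which 61 changed sign without a call, 143 lost and 90 gained a call, and 15 changed sign with a call. Depth limits Fdps most, at 99 to 334 fragments.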
